A study of Mus musculus with 9 samples.

Results

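The 10 genes described here, Plagl1, Mest, Peg10, Peg3, Kcnq1ot1, Airn, Slc38a4, Grb10, Snrpn and Impact, are imprinted genes whose promoter or an internal promoter is known to carry methylation on the maternal copy. They were taken by name, and CpGs were used from 2 kb outside one end of each gene to 2 kb outside the other. All 9 libraries shared 1096949 CpGs with 1 or more reads, and 359 of these lay in these 10 loci. A stretch was defined by position alone, as a run of at least 10 such CpGs with gaps of at most 100 bp. The genome held 20675 stretches, of which 6 had a CpG within 2 kb of an end of one of the 10 genes, and 5 more lay inside 4 of them. Plagl1, Mest, Peg10, Kcnq1ot1, Airn and Grb10 each had 1 end stretch. Peg3, Slc38a4 and Impact had only end groups of 5 to 9 CpGs, and Snrpn had no CpG read in all libraries within 2 kb of either end.

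The assay was reduced representation bisulfite sequencing, which reads restriction fragments and so favours CpG-dense DNA. All libraries came from Abl.1, 1 clonal line of immortalised B cells (female, strain 129S1/SvImJ x CAST/EiJ F1), so a single clone stands for every condition. Cells were grown to day 2 in medium with 1% DMSO (2 libraries) or with 5-aza-dC at 0.2 µM (2 libraries), 2 µM (3 libraries) or 10 µM (2 libraries), and live cells were recovered by density centrifugation before DNA extraction. 5-aza-dC (5-aza-2'-deoxycytidine) is a cytidine analogue that is built into replicating DNA and traps DNA methyltransferases. The labels call the replicates library preparations, so p-values measure only the spread between these libraries, which may be technical. The 3 doses were compared with the same 2 DMSO libraries.

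Genomic imprints are methylation marks set in the germ line on one parental copy and kept through the cell divisions that follow, by maintenance methylation and by zinc finger proteins such as ZFP57 that bind the methylated copy. At a maternally methylated promoter the paternal copy is the unmethylated and active one, and several of these promoters drive long noncoding RNAs that silence neighbouring genes on the paternal chromosome. The level reported here is the share of methylated reads over both parental copies, which were not separated. At an intermediate level it therefore cannot say which copy was methylated, and that the methylation is maternal was not tested. If both copies were read alike, a level near full methylation means that both were methylated, and a level near none that neither was. Whether the copies were read alike was not tested. RNA was not part of these files, and the B cell identity of the line was not tested.

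Of the members' annotated promoters, only those of Plagl1 and Grb10 held CpGs read in all libraries, and both are shown for that reason. Each runs from 250 bases before to 50 bases after an annotated start, taken from RefSeq with build GRCm38 (mm10). The Plagl1 window is chr10:13090582-13090881 on the plus strand and the Grb10 window is chr11:12037371-12037670 on the minus strand. Capitals mark the CpGs read in all 9 libraries, 9 in Plagl1 and 8 in Grb10.

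Plagl1: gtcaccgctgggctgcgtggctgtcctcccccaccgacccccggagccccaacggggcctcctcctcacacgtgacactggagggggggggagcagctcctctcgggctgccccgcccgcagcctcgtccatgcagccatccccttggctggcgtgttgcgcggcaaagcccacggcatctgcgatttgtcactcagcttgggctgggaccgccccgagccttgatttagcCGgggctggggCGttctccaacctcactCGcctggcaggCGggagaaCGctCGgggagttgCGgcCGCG

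Grb10: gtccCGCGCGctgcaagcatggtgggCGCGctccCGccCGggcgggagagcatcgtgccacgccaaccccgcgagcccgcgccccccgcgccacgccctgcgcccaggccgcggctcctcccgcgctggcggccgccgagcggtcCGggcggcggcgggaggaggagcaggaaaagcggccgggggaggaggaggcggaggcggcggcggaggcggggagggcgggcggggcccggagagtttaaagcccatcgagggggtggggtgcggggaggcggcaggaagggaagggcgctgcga

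The capitals of Plagl1 lie in the part around its start, and those of Grb10 in the outer part of its window, upstream of the start. These windows hold 26 CpGs in Plagl1 and 45 in Grb10. The reads of the 9 Plagl1 CpGs were methylated at a mean of 24.6% in DMSO and 26.8%, 23.0% and 32.4% at 0.2, 2 and 10 µM. Those of the 8 Grb10 CpGs were methylated at a mean of 96.7% in DMSO and 57.4%, 51.6% and 63.4% at the 3 doses. These are means of library levels, given without their spread. With the reads of a group summed, the 9 Plagl1 CpGs ranged from 11.1% to 33.3% in DMSO and from 8.3% to 30% at 10 µM. No rise at 10 µM can therefore be read from these means. The hexamer TGCCGC, the core of the ZFP57 motif, was sought on both strands. It occurred in 1 place in each of the 2 windows, and in 5 of the 16 promoter windows of the 8 members with an entry, 2 of which are overlapping windows of Mest. In all, 31.25% of the members' windows and 11.6% of 32851 promoter windows held it. A match is a description of the letters only.

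Libraries held between 8590883 and 16495535 CpG calls, a call being 1 read over 1 CpG, and their median depth was 3 to 5 reads on a CpG. The shallowest were DMSO replicate 2 and 10 µM replicate 2. Libraries of one group differed by 1.10 to 1.17 times the variance that sampling gives, over CpGs with at least 10 reads in both. Over all stretches the level fell far more often than it rose. At 0.2 µM 31.6% of stretches were called lower than in DMSO (Benjamini-Hochberg adjusted p below 0.05 in a binomial model with moderated dispersion), against 26.2% at 2 µM and 6.68% at 10 µM. These shares move with single libraries. Without DMSO replicate 1 the 6525, 5415 and 1381 stretches called lower became 4336, 3453 and 131, and without DMSO replicate 2 they became 4402, 3552 and 225. The test moderates dispersion in 2 classes of stretches, a choice made on simulated data, and the single moderation planned at first gave 5656, 4672 and 295. Higher levels were called at 0.0484% of stretches at 0.2 µM and 0.102% at 2 µM. The median level of all stretches was 3.07% in DMSO. Among the 8058 with a mean of at least 20% over the 4 groups, 74.5%, 66.5% and 17.1% were called lower at 0.2, 2 and 10 µM, with median changes of -28.83, -28.50 and -13.20 percentage points.

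In DMSO the end stretches of the 6 members fell into a wide range of levels. Airn, Peg10 and Grb10 were at 85.7% or above, Plagl1 and Kcnq1ot1 were at 37.4% and 26.9%, and no methylated read was seen at Mest. Their median was 61.5% in DMSO and then, with rising dose, 52.1%, 41.1% and 42.8%. At 0.2 µM none of the 6 was called lower and 1, Mest, was called higher. At 2 µM 2 were called lower, Airn and Grb10, and Mest was again called higher, and at 10 µM only Airn was called lower. At an unadjusted p below 0.05 the counts in either direction were 3, 3 and 2. Between doses none of the 6 was called, where 0.880% of all stretches were called for 2 against 0.2 µM, 3.39% for 10 against 2 µM and 13.5% for 10 against 0.2 µM. The unadjusted counts were 1, 0 and 3. The shares between doses rest on single libraries. The 182 calls for 2 against 0.2 µM became 0 without either 0.2 µM library and ranged from 3 to 354 when another library was left out. The 700 for 10 against 2 µM became 38 to 450, the fewest without 10 µM replicate 2. The 2793 for 10 against 0.2 µM became 1152 to 2964, the fewest without 0.2 µM replicate 1. With the single moderation these counts were 0, 0 and 1465. The members' calls against DMSO rested on both DMSO libraries. Without DMSO replicate 1 no end stretch was called at any dose, and without DMSO replicate 2 only Airn at 2 µM was.

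**Figure D1:**
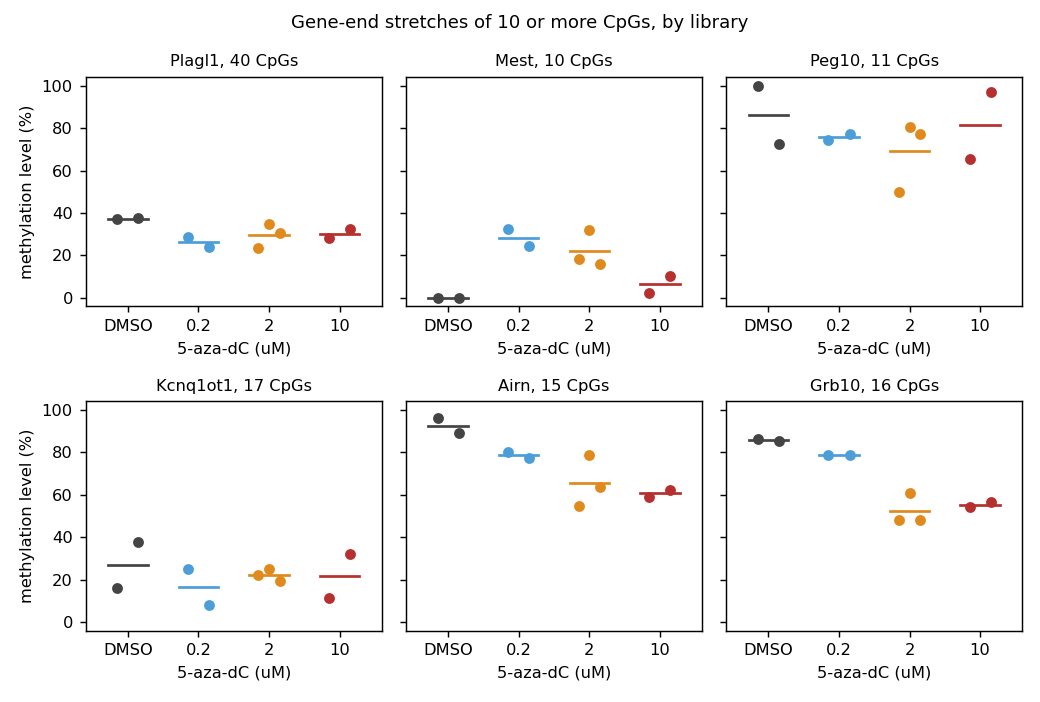
Methylation level (%) of the 6 gene-end stretches by 5-aza-dC dose. Points are libraries and bars are group means. Airn and Grb10 step down from DMSO to 2 µM, Plagl1 and Kcnq1ot1 stay under 40%, and Mest has no methylated read in DMSO.

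Airn and Kcnq1ot1 are long noncoding RNAs. Airn is transcribed antisense across Igf2r, the receptor that clears the growth factor IGF2, and silences it on the paternal chromosome. Its end stretch of 15 CpGs, chr17:12742236-12742421, lay 925 to 1110 bp inside the gene, within the Igf2r gene on the annotation, and carried 64 to 160 calls per library. It stood at 96.2% and 89.1% in DMSO, at 80.0% and 77.4% with 0.2 µM, at 54.5%, 78.8% and 63.9% with 2 µM, and at 59.2% and 62.2% with 10 µM. Every treated library was below both DMSO libraries, and both 10 µM libraries were below both at 0.2 µM. The mean changed by -13.97 points (SE 3.82) at 0.2 µM, -26.92 (SE 7.91) at 2 µM and -31.96 (SE 3.90) at 10 µM, with adjusted p of 0.0787, 0.00316 and 0.00911. Left without DMSO replicate 1, the call was lost at 2 µM (adjusted p = 0.108) and at 10 µM (0.193), and without DMSO replicate 2 at 10 µM (0.0540). The 10 µM call was also lost under 5 other settings, the planned single moderation (0.0596) among them, with adjusted p up to 0.229, and the 2 µM call with unweighted CpG means and limma (0.162). The change at 0.2 µM was called under 1 other setting. The difference of -17.99 points between 10 and 0.2 µM was not called (adjusted p = 0.142). Single CpGs of the stretch ranged from 66.7% to 100% in DMSO.

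Kcnq1ot1, transcribed antisense inside Kcnq1, silences Cdkn1c, Phlda2 and other neighbours on the paternal chromosome. Its 17 CpGs, chr7:143295375-143295618, lay 929 to 1172 bp inside the gene and carried 101 to 220 calls per library. The levels were 16.2% and 37.6% in DMSO, 25.3% and 8.3% with 0.2 µM, 22.2%, 25.3% and 19.5% with 2 µM, and 11.6% and 32.1% with 10 µM. All 4 groups overlapped, and the 2 DMSO libraries lay farther apart than any 2 group means. No dose was called, with adjusted p of 0.485, 0.984 and 1. The interval that such a spread leaves is wide, since the SE of the change was 13.7, 10.8 and 14.8 points at 0.2, 2 and 10 µM.

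**Figure D2:**
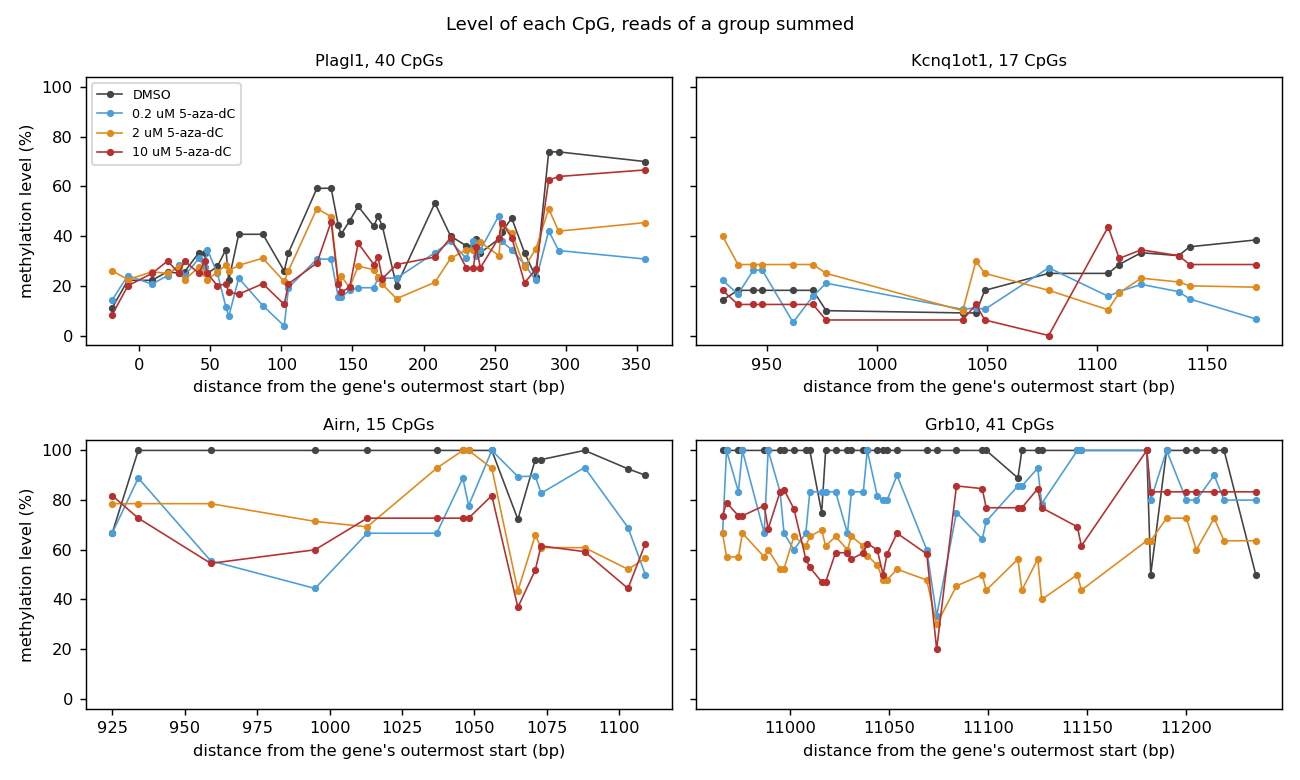
Level (%) of single CpGs against distance from the outermost annotated start (bp) in 4 stretches, with the reads of each group summed. In DMSO most CpGs of Airn and of the Grb10 stretch of 41 CpGs are at or near 100%, whereas those of Plagl1 range from 11.1% to 73.9%.

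Plagl1 encodes a zinc finger transcription factor of the imprinted gene network linked to the control of growth, and its stretch also covers the noncoding RNA Hymai on the annotation. It had the most CpGs and calls of the end stretches, with 40 CpGs over chr10:13090813-13091189, from 19 bp before to 357 bp after the start, and 356 to 743 calls per library. The levels were 37.1% and 37.7% in DMSO, 28.7% and 23.9% with 0.2 µM, 23.3%, 35.0% and 30.8% with 2 µM, and 28.1% and 32.6% with 10 µM. All 7 treated libraries were below both DMSO libraries, and the doses overlapped with each other. The changes of -11.13 (SE 2.40), -7.71 (SE 3.42) and -7.08 points (SE 2.27) were not called, with adjusted p of 0.0856, 0.273 and 0.638. That at 0.2 µM was called under 2 other settings. Within the stretch the first 20 CpGs had a mean of 32.6% in DMSO and the last 20 had 44.7%, and 0.2 µM left 21.2% and 30.6%.

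Grb10 encodes an adaptor protein that dampens signalling from the insulin and IGF1 receptors. It is expressed from the maternal copy in most tissues and from the paternal copy in neurons, where an internal promoter next to the imprinted CpG island is used. The end stretch of 16 CpGs, chr11:12036661-12036755, lay 673 to 767 bp inside the gene and carried 61 to 141 calls per library. Its level was 86.1% and 85.2% in DMSO, 78.8% in both libraries with 0.2 µM, 48.0%, 61.1% and 48.2% with 2 µM, and 54.3% and 56.5% with 10 µM. The 0.2 µM libraries were close to DMSO, and those at 2 and 10 µM were below both with no overlap. The changes were -6.83 points (SE 0.433) at 0.2 µM, -33.26 (SE 4.34) at 2 µM and -30.32 (SE 1.18) at 10 µM. These SEs come only from the spread of 2 or 3 library levels per group. That at 0.2 µM is small because both libraries had the same level and those of DMSO were close. It is no measure of the counting error at 61 to 141 calls per library. Only the change at 2 µM was called (adjusted p of 0.809, 0.0145 and 0.106). That call was lost without DMSO replicate 1 (adjusted p = 0.125) or DMSO replicate 2 (0.0933), and with each read counted once per 100 bp (0.0765). Against DMSO, the change at 10 µM was called under 3 other settings. Neither 2 nor 10 µM was called against 0.2 µM (adjusted p of 0.226 and 0.192).

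Peg10 is a gene derived from a retrotransposon that the placenta needs, and it shares its start region with Sgce, whose end the same stretch touches. Its 11 CpGs, chr6:4747363-4747485, began 57 bp inside the annotated gene and carried 11 to 82 calls per library, which is as few as 1 read per CpG. The levels were 100% and 72.7% in DMSO, 74.4% and 77.3% with 0.2 µM, 50.0%, 80.5% and 77.3% with 2 µM, and 65.6% and 96.9% with 10 µM. Every group overlapped with DMSO and none was called (adjusted p of 0.892, 0.818 and 1). The SE of the change was 13.7 to 20.7 points, and at this depth a change would need to be well above its SE to be called. That of -17.10 points at 2 µM was not called.

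Mest encodes an enzyme of the alpha/beta hydrolase family linked to growth and fat storage. Its stretch of 10 CpGs, chr6:30735330-30735509, lay 1824 to 2003 bp inside the gene, between its outermost annotated start and the cluster of inner starts. No call was methylated in DMSO (40 and 19 calls), whereas the treated libraries held methylated calls, 32.4% and 24.3% with 0.2 µM, 18.2%, 32.1% and 16.1% with 2 µM, and 2.5% and 10.5% with 10 µM. All treated libraries were above both DMSO libraries, by means of 28.38 points (SE 4.05), 22.13 (SE 5.04) and 6.51 (SE 4.01), with adjusted p of 0.0113, 0.0272 and 0.677. These calls come from few molecules, since at most 6 reads in DMSO covered any of the 10 CpGs, and 0 of 6 reads allows a level of up to 50.0%. When each read was counted once per 100 bp, a choice made after the data were seen, the rises were not called (adjusted p of 0.0610 and 0.161). The rise at 2 µM was also not called with the single moderation planned at first (0.0570). They were also lost without DMSO replicate 1 (0.110 at 0.2 µM and 0.211 at 2 µM) or DMSO replicate 2 (0.0681 and 0.136), at 0.2 µM without its replicate 1 (0.0636), and at 2 µM without its replicate 2 (0.0673). Such limits, 3 counts over the reads, cover counting error only.

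The smaller end groups of 5 to 9 CpGs add the members without a stretch. They were tested with the same model over 45624 groups of at least 5 CpGs, of which 50.4%, 38.5% and 8.35% were called lower at 0.2, 2 and 10 µM. Of the 5 end groups, those of Peg3 and Grb10 were called lower at 0.2 and 2 µM, and none at 10 µM, where 3 had an unadjusted p below 0.05. None was called higher. No library was left out in this fit, and counting each read once per 100 bp was not run for it.

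Peg3 encodes a large zinc finger protein with roles in maternal care and growth. Its 5 CpGs, chr7:6730262-6730328, began 134 bp inside the gene and carried 16 to 92 calls per library. They were at 87.5% and 93.8% in DMSO, 46.9% and 38.6% with 0.2 µM, 35.0%, 40.0% and 48.9% with 2 µM, and 83.3% and 31.8% with 10 µM. All treated libraries were below DMSO, and the 2 libraries at 10 µM were at opposite ends of the treated range. The changes were -47.87 points (SE 5.17), -49.32 (SE 5.13) and -33.05 (SE 25.9), with adjusted p of 0.00404, 0.00310 and 0.0900.

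The Grb10 group of 8 CpGs, chr11:12037631-12037675, lay just outside the gene and holds 7 of the capitals in the Grb10 window above. It carried 14 to 89 calls per library and was at 93.3% and 100% in DMSO, 57.1% and 57.8% with 0.2 µM, 46.4%, 69.5% and 40.4% with 2 µM, and 68.2% and 66.7% with 10 µM. There was no overlap with DMSO at any dose, but the DMSO libraries held only 15 and 14 calls, with at most 2 reads on any CpG. The 8 CpGs lie within 45 bp, so a read can be counted at several of them. The adjusted p was 0.00866, 0.00419 and 0.110. At 0.2 µM this group changed by -39.21 points, against -6.83 in the stretch of 16 CpGs just inside the gene.

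Mest had a second end group, 6 CpGs at chr6:30732801-30732878, upstream of its outermost start. It was at 77.8% and 64.4% in DMSO, 58.1% and 54.2% with 0.2 µM, 33.3%, 63.8% and 46.1% with 2 µM, and 45.9% and 45.5% with 10 µM. All treated libraries were below both of DMSO, and no dose was called (adjusted p of 0.240, 0.0600 and 0.140). Slc38a4, an amino acid transporter, had 6 CpGs at chr15:97055204-97055321. They were at 50.0% and 62.5% in DMSO, 48.3% and 51.3% with 0.2 µM, 41.8%, 63.4% and 41.0% with 2 µM, and 65.0% and 75.0% with 10 µM. The groups overlapped except that both 10 µM libraries were above DMSO, and no dose was called (adjusted p of 0.847, 0.781 and 0.700). Impact, a regulator of translation, had 7 CpGs at chr18:12955747-12955932 with 69 to 174 calls per library. They were at 0% in 7 of the 9 libraries and at 1.6% and 1.4% in 0.2 µM replicate 2 and 10 µM replicate 2. The 45 DMSO reads at the deepest CpG of the 2 libraries allow a level of up to 6.67%.

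Snrpn, which encodes a protein of the small nuclear ribonucleoproteins, has a maternally methylated promoter at an inner start of the annotated gene. Only 2 CpGs were read in all libraries within 2 kb of that start, 548 bp inside it, with 9 to 31 calls per library. Their level was 60.7% and 55.6% in DMSO, 53.8% and 34.8% with 0.2 µM, 47.6%, 30% and 58.1% with 2 µM, and 50.0% and 30% with 10 µM. The treated libraries overlapped with DMSO at 2 µM, and 2 CpGs were not tested. The other 17 CpGs of the locus lay inside the gene, and 5 of them formed a group that was read 16.6 to 65.2 times per CpG. With all calls summed, that group fell from 88.6% (SD 5.86, n = 2) in DMSO to 49.4% (SD 3.10, n = 2), 50.0% (SD 5.69, n = 3) and 58.1% (SD 9.51, n = 2) at the 3 doses, with adjusted p of 0.000153, 0.000150 and 0.0105. These values rest mostly on 1 CpG with 1397 reads over the 9 libraries, at 95.0% in DMSO, since the other 4 had 140 to 160 reads each and 3 of them were at 42.9% to 57.1% in DMSO. With each CpG weighted equally the levels were 62.7% in DMSO and 36.7%, 40.8% and 38.6% at the 3 doses, which were not tested.

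The 5 stretches inside the genes were called lower more often than those at the ends, 4, 4 and 2 of the 5 at 0.2, 2 and 10 µM, and the difference between the 2 kinds was not tested. The Impact stretch of 27 CpGs was the exception and was not called at any dose. These counts stand against the 31.6%, 26.2% and 6.68% of all stretches called lower, or 74.5%, 66.5% and 17.1% of the methylated ones. When each read was counted once per 100 bp the counts were 2, 4 and 0. End and inside follow the annotated gene coordinates, not the imprinted promoters, which in Grb10 and Snrpn are internal. Mest also has annotated inner starts, and its end stretch lay between these and the outermost start. An end stretch therefore need not be the maternally methylated promoter, and an inside stretch need not be ordinary gene body.

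Grb10 held 2 of these stretches next to its inner start, at 1508 and 2077 bp from it. The larger, 41 CpGs over chr11:12026193-12026463, was at 96.2% and 98.6% in DMSO, 83.1% and 82.1% with 0.2 µM, 60.1%, 48.1% and 65.6% with 2 µM, and 72.6% and 62.7% with 10 µM. The groups did not overlap except 2 and 10 µM. The changes were -14.78 points (SE 1.32), -39.45 (SE 5.32) and -29.68 (SE 5.10), all called (adjusted p of 0.0106, 2.61e-05 and 0.00229). It was also the one member stretch called between doses, 24.67 points lower at 2 than at 0.2 µM (SE 5.21, adjusted p = 0.0424), where only 0.880% of all stretches were called and the median change of methylated stretches was 4.85 points upward. That call was lost when either library of DMSO or 0.2 µM or any library at 2 µM was left out (adjusted p of 0.0646 to 0.384), and under 7 other settings (0.0751 to 0.274), the planned single moderation among them (0.242). The call at 0.2 µM was lost without DMSO replicate 1 (adjusted p = 0.0511) or replicate 2 (0.0880) and under 3 other settings (0.165 to 0.201). That at 10 µM was lost without DMSO replicate 1 (0.0521) and under the same 3 (0.0646 to 0.146), whereas that at 2 µM held under every alternative run for it. Depth was 1.7 to 8.3 reads per CpG.

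The smaller Grb10 stretch of 11 CpGs, chr11:12025803-12025894, was at 98.3% and 100% in DMSO, 66.7% and 65.9% with 0.2 µM, 46.9%, 28.6% and 61.0% with 2 µM, and 72.9% and 69.4% with 10 µM. No treated library came near DMSO, and every 2 µM library was below those at the other doses. All 3 doses were called (adjusted p of 0.00456, 0.000198 and 0.0374). The 10 µM call was lost when either library of DMSO, 0.2 µM or 10 µM was left out (adjusted p of 0.0508 to 0.300) and under 5 other settings (0.0612 to 0.305), and the 0.2 µM call without DMSO replicate 2 (0.0596).

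In Airn, the inner stretch of 18 CpGs, chr17:12769700-12769831, lay 28389 to 28520 bp from its start. Airn is on the plus strand and Igf2r runs antisense to it, so the stretch lay at the start of Igf2r. This stretch was at 89.0% and 90.7% in DMSO, 65.0% and 61.4% with 0.2 µM, 41.3%, 48.1% and 48.7% with 2 µM, and 75.0% and 63.6% with 10 µM. Libraries at 2 µM were lowest, and none of the treated libraries overlapped with DMSO. Called changes were -26.63 points (SE 2.02) at 0.2 µM and -43.82 (SE 2.54) at 2 µM (adjusted p of 0.00780 and 0.000186), and that of -20.52 (SE 5.75) at 10 µM was not called (0.111). The 0.2 µM call was lost without DMSO replicate 1 (0.0684) and with each read counted once per 100 bp (0.121). In Peg10, the inner stretch of 10 CpGs, chr6:4755844-4756055, was at 86.2% and 97.0% in DMSO, 46.7% and 48.9% with 0.2 µM, 50.8%, 48.4% and 45.7% with 2 µM, and 58.4% and 63.2% with 10 µM. The 3 doses did not reach DMSO, and 0.2 and 2 µM were called (adjusted p of 0.00529, 0.00345 and 0.0979). The change at 10 µM was called under 3 other settings. Without DMSO replicate 2 the adjusted p was 0.0748 at 0.2 µM and 0.0717 at 2 µM. Impact's 27 CpGs, chr18:12973131-12973506, were at 16.7% and 20.2% in DMSO, 21.2% and 19.5% with 0.2 µM, 23.4%, 14.0% and 14.6% with 2 µM, and 35.4% and 19.0% with 10 µM. Its groups overlapped and no dose was called (adjusted p of 0.964, 1 and 0.530).

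**Figure D3:**
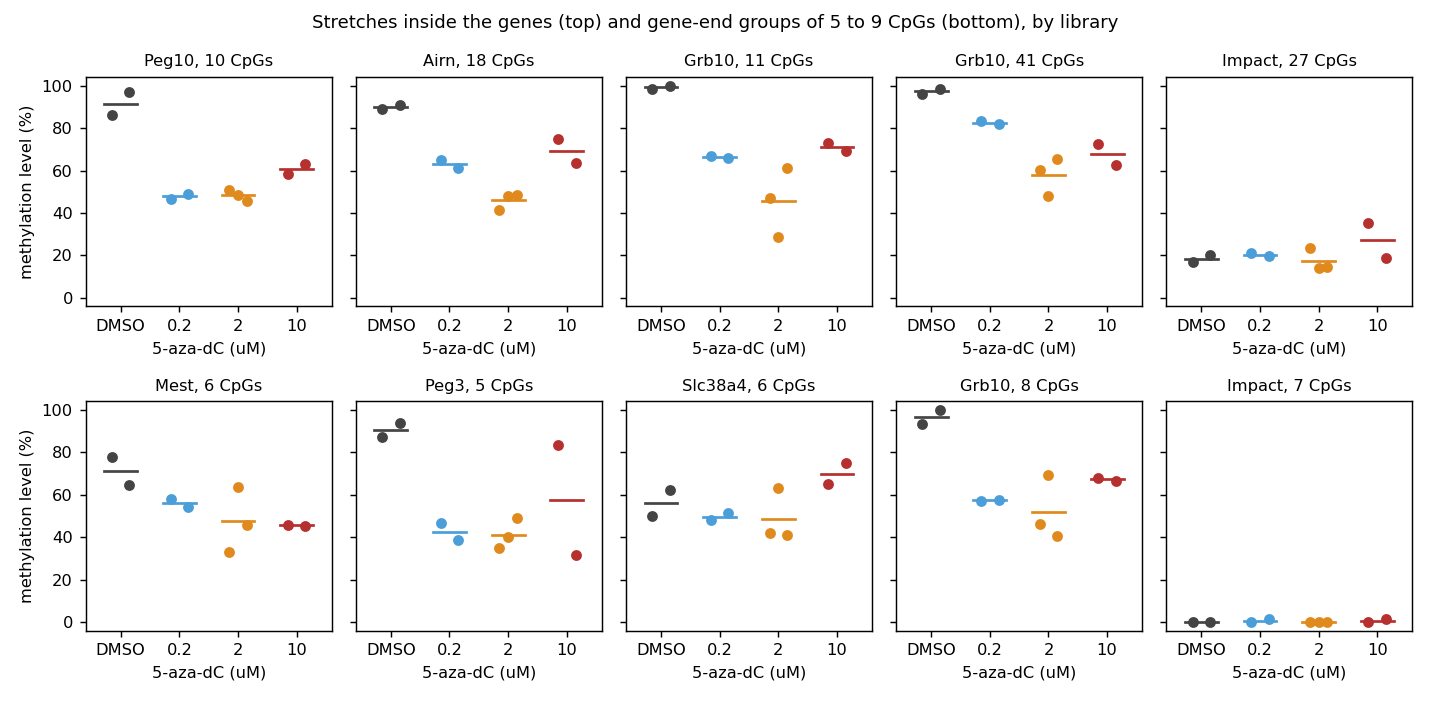
Methylation level (%) by 5-aza-dC dose of the 5 stretches inside the genes (top) and of the 5 end groups with 5 to 9 CpGs (bottom). Points are libraries and bars are group means. In Grb10, Airn and Peg10 the inside stretches of treated libraries lie below both DMSO libraries, and Impact stays low in all groups.

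The order of the doses differed between members. Over the 8058 methylated stretches of the genome, the lowest of the 3 treated levels was at 0.2 µM in 64.0%, at 2 µM in 33.6% and at 10 µM in 2.47%. Of the members' 10 stretches with such a mean, 3 were lowest at 0.2 µM, 6 at 2 µM and 1, the Airn end, at 10 µM. The 3 lowest at 0.2 µM were the Plagl1 and Kcnq1ot1 ends and the inner Peg10 stretch. As a difference from DMSO, the 0.2 µM change of the ends of Peg10, Airn and Grb10 and of the larger inner Grb10 stretch, -6.83 to -14.78 points, was smaller than in the middle 50% of methylated stretches, -45.09 to -19.76 points. These 4 were at 85.7% or above in DMSO, and the methylated stretches had a median of 77.8%. The ends of Plagl1 and Kcnq1ot1 changed by -11.13 and -10.14 points, but they started from 37.4% and 26.9%, and Kcnq1ot1 could not have fallen by as much as the median of -28.83. At 10 µM those of the Airn end (-31.96 points), the Grb10 end (-30.32) and the inner Peg10 (-30.77) and Grb10 stretches (-28.00 and -29.68) were larger than in that middle 50%, -20.92 to -5.49 points. These positions are a description, and no test compared the members with other stretches.

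**Figure D4:**
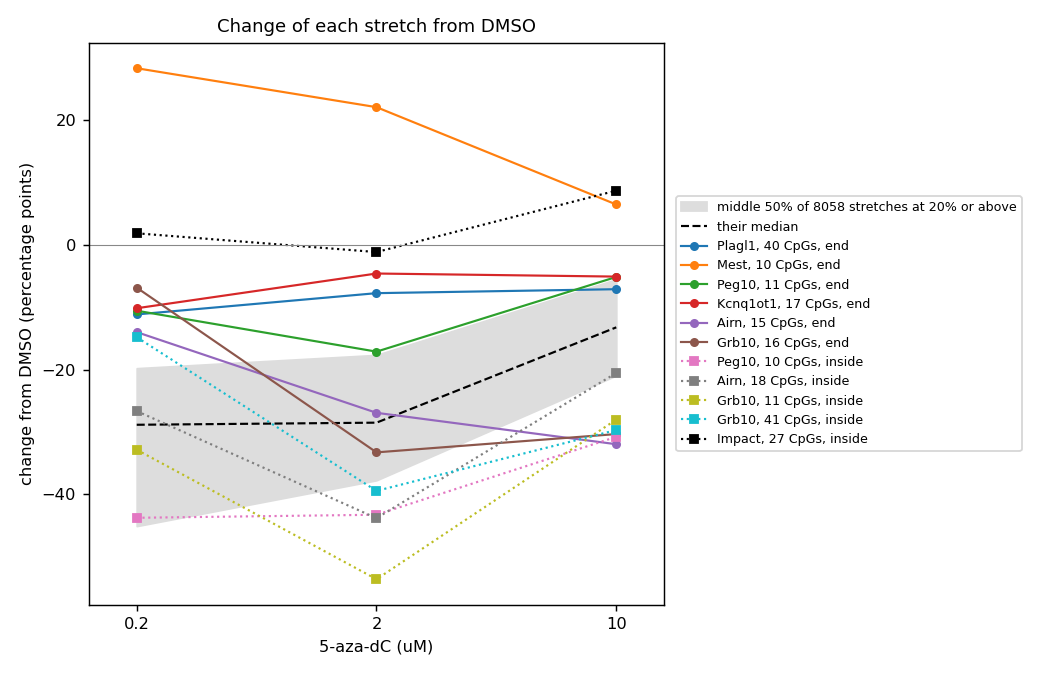
Change from DMSO in percentage points at 3 doses of 5-aza-dC for each member stretch, with the middle 50% (grey) and the median (dashed) of the 8058 stretches at 20% or above. At 0.2 µM 6 member stretches lie between the grey band and 0, of which Plagl1 and Kcnq1ot1 had less to lose, at 37.4% and 26.9% in DMSO, and at 10 µM 5 lie below the band.

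Each gene end was then set against the gene body, the CpGs more than 2 kb inside both ends. Over 4390 genes with an end stretch and at least 10 body CpGs, the difference of end minus body changed in 73.0% at 0.2 µM, 61.7% at 2 µM and 33.8% at 10 µM (limma, adjusted p below 0.05). Only Airn, Grb10 and Peg10 met both conditions. Most calls were rises, 3059 of 3203, 2493 of 2709 and 1350 of 1482 at the 3 doses. All stretches of the genome had a median of 3.07% in DMSO, and an end near 0% cannot fall while its body does. These shares are therefore not a like background for methylated ends of members. In Airn the body was 37 CpGs, of which 23 lay in dense groups, the inner stretch of 18 CpGs among them. It was at 82.4% and 90.6% in DMSO, 50.4% and 47.6% with 0.2 µM, 48.4%, 46.6% and 49.1% with 2 µM, and 66.5% and 57.8% with 10 µM. The 14 body CpGs outside dense groups changed by -56.54 points at 0.2 µM. At 0.2 µM the body changed by -37.49 points and the end by -13.97, and the difference moved by 23.52 points (SE 8.91, limma adjusted p = 0.0438). That call was lost without DMSO replicate 2 (0.232), either library at 0.2 µM (0.121 and 0.123), 2 µM replicate 3 (0.0612) or 10 µM replicate 1 (0.0502). At 2 and 10 µM the difference moved by 11.56 and -7.60 points and was not called (0.264 and 0.558). From 0.2 to 10 µM, where 69.8% of genes were called, 80 of the 3064 upward, the difference moved by -31.12 points (SE 8.91, limma adjusted p = 0.0153). Without either library at 0.2 µM the adjusted p was 0.0576 and 0.0585, and without 10 µM replicate 1 it was 0.0840.

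In Grb10 the body, 69 CpGs of which 60 lay in dense groups, went from 84.5% (SD 3.24, n = 2) to 67.6% (SD 0.583, n = 2), 52.3% (SD 8.58, n = 3) and 65.0% (SD 4.41, n = 2). The end minus body difference moved by 10.07, -1.05 and -10.87 points, none of it called (limma adjusted p of 0.343, 0.935 and 0.392). This end is the stretch of 16 CpGs alone, and the body holds both stretches next to the inner start. At 0.2 µM the end stretch changed by -6.83 points and the body by -16.90, but the end group of 8 CpGs changed by -39.21 and 5 other end CpGs by -48.72, and the 9 body CpGs outside dense groups by -5.67. In DMSO the group of 8 held 15 and 14 calls, and the 5 other end CpGs 10 and 13. In Peg10 15 of the 17 body CpGs lay in dense groups. The body went from 89.99% (SD 4.60, n = 2) to 47.5% (SD 6.01, n = 2), 48.0% (SD 2.95, n = 3) and 61.8% (SD 6.18, n = 2). The end minus body difference moved by 31.94, 24.88 and 23.03 points (limma adjusted p of 0.0844, 0.149 and 0.266). Single libraries moved these values by over 1.5 times. Without DMSO replicate 2 they were 15.05, 7.99 and 6.14 points, and without DMSO replicate 1 they were 48.83, 41.77 and 39.92, of which 0.2 µM was called (limma adjusted p = 0.0291). Without 2 µM replicate 1 the changes at 0.2 and 2 µM were called (31.94 and 35.77 points, adjusted p of 0.0458 and 0.0373). Without 10 µM replicate 2 the 10 µM value was 11.77.

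Slc38a4 could be tested with its end group of 6 CpGs, over 5014 genes with an end group of at least 5 CpGs, of which 69.2% changed at 0.2 µM, 57.9% at 2 µM and 29.4% at 10 µM. At 0.2 µM 3197 of these 3472 changes were rises. With 20 sparse body CpGs, the body was at 76.0% and 76.8% in DMSO, 28.2% and 26.4% with 0.2 µM, 39.1%, 34.3% and 39.9% with 2 µM, and 50.3% and 53.3% with 10 µM. The body was below DMSO in all 7 treated libraries, while the end group lay at or above the lower DMSO library in 4 of them. The end minus body difference moved by 42.66 points (SE 9.48), 31.14 (SE 8.65) and 38.37 (SE 9.48), called at all 3 doses (limma adjusted p of 0.00450, 0.0159 and 0.0229). No library was left out in that fit. In DMSO the end group held 30 and 16 calls, with as few as 1 read on a CpG. The end CpGs of Slc38a4 outside that group changed by -41.27 points at 0.2 µM, against -6.47 in the group and -49.13 in the body.

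The other bodies are given as levels with no test. Kcnq1ot1 had 4 body CpGs, at 60.7% and 38.1% in DMSO, 12.5% and 5.7% with 0.2 µM, 45.9%, 42.2% and 40.0% with 2 µM and 59.4% and 69.0% with 10 µM. Plagl1 had 3 with as few as 4 calls per library, all methylated in DMSO and 20% and 20.8% methylated at 0.2 µM. The body of Mest, 9 CpGs, was at 30.2% (SD 7.38, n = 2) in DMSO and 32.1% (SD 5.58, n = 2), 36.4% (SD 10.1, n = 3) and 55.3% (SD 3.61, n = 2) at the 3 doses. It joins a dense group of 5 CpGs at 22.2% in DMSO with 4 thinly read CpGs at 100%, and with equal weight for each CpG the levels were 57.4%, 46.6%, 56.5% and 69.4%. That dense group of Mest lay 1201 bp from the nearest annotated start. Its level was 22.2% in DMSO (SD 13.8) and 30.3% (SD 9.09), 29.8% (SD 9.24) and 48.4% (SD 5.26) at the 3 doses. The body of Impact, 33 CpGs, was at 21.7% (SD 2.66, n = 2) in DMSO and 32.1% (SD 9.20, n = 2) at 10 µM. The Snrpn body of 19 CpGs went from 79.1% (SD 2.24, n = 2) to 43.6%, 46.1% and 56.0% with calls summed, where 2 CpGs with 1397 and 1396 reads outweigh the others, which had 19 to 170. With equal weight the levels were 55.9%, 26.6%, 35.4% and 41.4%. Peg3 had no body CpG.

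**Figure D5:**
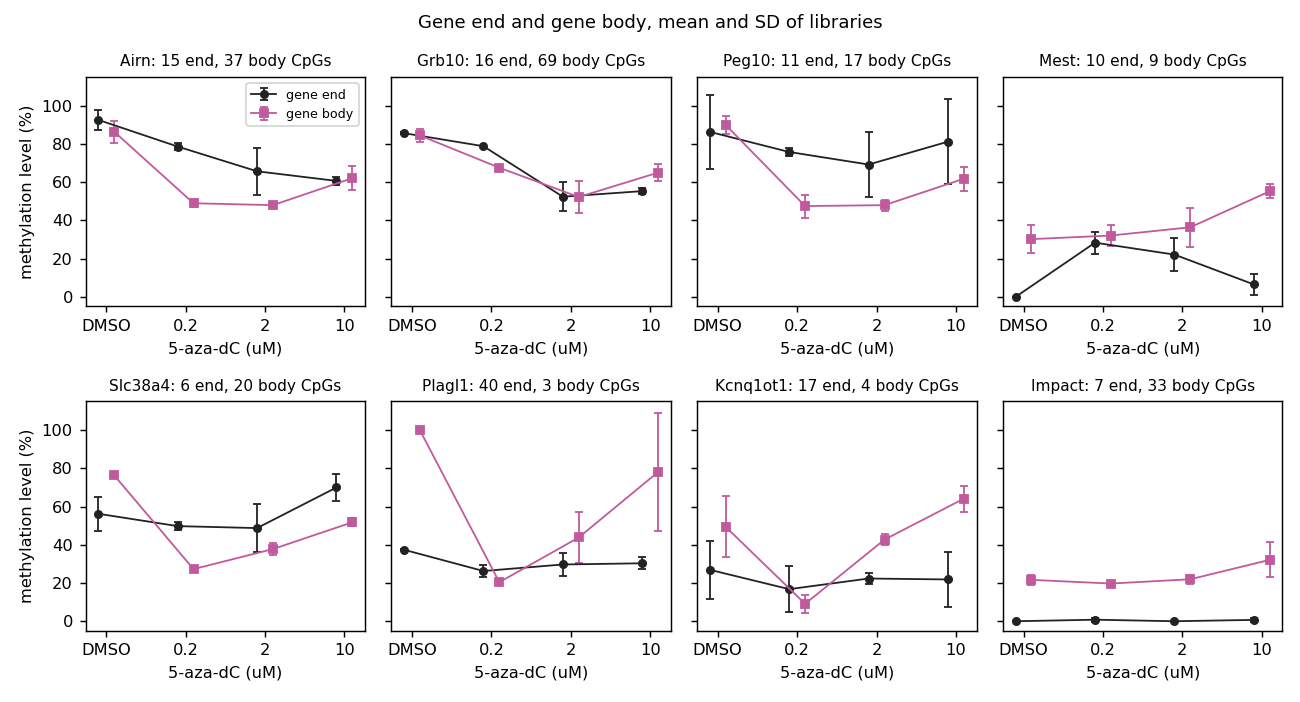
Methylation level (%) of gene end (circles) and gene body (squares) by 5-aza-dC dose in 8 members, as mean and SD of 2 or 3 libraries. In Airn, Peg10, Slc38a4, Plagl1 and Kcnq1ot1, and in Grb10 with its end stretch of 16 CpGs, the body drops further than the end shown at 0.2 µM, whereas the end group of 8 CpGs in Grb10, not drawn, dropped further than its body.

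For comparison, 13 imprinted neighbours of these genes were listed, and 9 had an end stretch, 14 stretches in all, which include the Peg10 end shared with Sgce and the inner Airn stretch shared with Igf2r. An end stretch can lie at either end of a gene and need not be at the promoter. Those of Slc22a3 and of Kcnq1 lie at both ends. At 0.2, 2 and 10 µM 9, 8 and 1 of the 14 were called lower and none higher, with median levels of 74.3% in DMSO and 26.6%, 38.9% and 58.1% at the doses. Of the 14, 10 were at 20% or above in DMSO, and the shares stand against 74.5%, 66.5% and 17.1% called lower among methylated stretches of the genome and 31.6%, 26.2% and 6.68% among all, so the counts show nothing particular to these neighbours. Cdkn1c, a cell cycle inhibitor in the domain of Kcnq1ot1, had 2 stretches at 92.5% (SD 0.837, n = 2) and 93.6% (SD 1.57, n = 2) in DMSO, which were at 57.1% (SD 4.43, n = 3) and 53.0% (SD 2.15, n = 3) at 2 µM. Slc22a3, a cation transporter in the domain of Airn, had 3, at 98.9%, 53.1% and 89.98% in DMSO and 39.8%, 18.2% and 52.6% at 0.2 µM. Magel2 went from 69.9% (SD 4.98, n = 2) to 34.0% (SD 2.73, n = 2) at 0.2 µM. The 3 stretches of Kcnq1, a potassium channel, were at 16.1%, 51.2% and 78.7% in DMSO and 18.3%, 19.2% and 18.1% at 0.2 µM. Phlda2 was at 18.02% and 9.08%. Copg2 and Ube3a, with 64 and 79 CpGs, were below 1% in every group. Usp29, Zim1, Ndn and Ddc had no end stretch.

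Of 8 genes that set or keep imprints, 5 had an end stretch, at either end of the gene and not necessarily at the promoter. At 0.2, 2 and 10 µM 2, 1 and 0 of the 5 were called lower and none higher, beside the same shares. Dnmt1, the maintenance methyltransferase, went from 94.9% (SD 3.06, n = 2) to 27.1% (SD 5.65, n = 2), 52.8% (SD 11.0, n = 3) and 78.1% (SD 4.42, n = 2). Zfp57 was at 51.7% (SD 3.18, n = 2) in DMSO and 20.6% (SD 11.9, n = 2) at 0.2 µM. Zfp445 was at 72.6% in DMSO with no call, and Trim28 and Uhrf1 were below 2% in every group. Dppa3, Dnmt3a and Dnmt3l had no end stretch.

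Among the 15593 end stretches of other genes, the 5 with levels nearest to the medians of the members' 5 methylated end stretches over the 4 groups (85.7%, 75.8%, 52.4% and 55.4%) were those of Utf1, Ctnna2, Mpped1, Foxl2 with its antisense neighbour Foxl2os, and Fam135a. They lay 4.50 to 7.22 points away, as Euclidean distance over the 4 levels. In all, 26 lay within 10 points. Utf1, the nearest, was at 84.8%, 74.7%, 52.7% and 59.6%.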

How the data were processed

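RRBS was run on 9 Abl.1 libraries. Per the submitters' processing notes the build is mm10; the aligner and the caller were not given in the sources used here. The authors deposited, per CpG, methylated over all reads as text (used for all levels) and a score, which equals that share on a scale of whole numbers and was used only as a check. All 180302 read positions inside RefSeq promoter windows fell on a CG. The members and lists were chosen with earlier results of these data known.

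The level of a stretch was its methylated over all calls. It was tested with a binomial model of 1 level per group over all 9 libraries, with calls scaled to their effective number (correlation between reads estimated in 5 coverage classes). Dispersion was moderated with limma 3.58.1 in R 4.3.3, separately for stretches at 10 to 90% and for the rest, with the binomial variance as its floor. Adjustment was by Benjamini-Hochberg over all 20675 stretches, threshold 0.05. The plan was a single moderation. It made no call on simulated data, so moderation in 2 classes replaced it as the main test, and the single one was kept as an alternative. In the simulation 107, 113 and 103 of 200 changed stretches were called at 0.2, 2 and 10 µM among 20675, all with the right sign, with 3, 3 and 5 unchanged ones. The changed stretches were all at 10 to 90%, within 1 of the 2 classes, and reads were drawn with the model's own correlation. The simulation therefore cannot decide which moderation is better for these data. Printed SEs come from the spread of library levels, not from the model. Ends against bodies were tested with limma on library differences. Groups of 5 to 9 CpGs come from the alternative with at least 5 CpGs. All 10 members are named, with every end stretch. PCR copies were not separated.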

Additional observations from a re-analysis of the deposited data

How the results depend on the processing

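The counts of the members' end stretches called against DMSO, 1, 3 and 1 at 0.2, 2 and 10 µM, depend on how stretches are cut and on the 2 DMSO libraries. Leaving out 1 library at a time gave 0 to 1, 0 to 3 and 0 to 1, and 0 for each comparison between doses. At least 5 CpGs gave 5, 5 and 2 of 11 groups; at least 20 CpGs, or at least 5 reads per CpG, left only Plagl1 and gave 0, 0 and 0 of 1. Gaps of at most 50 bp gave 0 of 5 at 0.2 and at 10 µM, and a 1 kb end window 0 of 5 at 0.2 µM. Reads counted once per 100 bp (added after seeing the data) gave 0, 1 and 0, and unweighted CpG means with limma gave 0 at 10 µM. The single moderation, planned as the main test and replaced because it made no call on simulated data, gave 1, 2 and 0, without Mest at 2 µM and Airn at 10 µM, and lowered the calls over all stretches from 6525, 5415 and 1381 to 5656, 4672 and 295. No scaling of reads gave 2 at 0.2 µM and 2 at 10 µM, and between doses 1 for 2 against 0.2 µM and 1 for 10 against 0.2 µM, where limma on summed levels gave 2. In the fits run, no called change of a single member stretch reversed in direction.

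The median end level moved mainly with which members counted. It was 37.7%, 26.4%, 29.8% and 30.3% (DMSO, 0.2, 2 and 10 µM) with at least 5 reads per CpG, and 37.4%, 26.3%, 29.7% and 30.3% with at least 20 CpGs, when only Plagl1 remained. It was 85.7%, 75.8%, 52.4% and 55.4% with gaps of at most 50 bp and with a 1 kb window, and 71.1%, 49.8%, 47.7% and 55.4% with at least 5 CpGs. Leaving out 1 library gave 55.2% to 61.6%, 50.8% to 53.4%, 37.6% to 43.8% and 41.2% to 44.5%.

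The members whose end minus body difference changed, 1, 0 and 0 of 3, became 0 at 0.2 µM with unweighted means, 2, 1 and 1 of 5 with at least 5 CpGs, and 0 to 2, 0 to 1 and 0 without 1 library. With the replicate number as a block, leaving out 2 µM replicate 3, the end stretches called stayed 1, 3 and 1 in number, the count for end minus body at 0.2 µM was 0, and the larger inner Grb10 stretch was not called for 2 against 0.2 µM (adjusted p = 0.0751). No pairing by replicate number was seen, as deviations of same-numbered libraries correlated at -0.027 to 0.0097 over 9195 stretches. These deviations are mostly counting error, which could hide a weak pairing. Depth limits the Peg10 end (1.0 read per CpG in its shallowest library), the Mest stretch (1.9) and the larger inner Grb10 stretch (1.7).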
